A study of Mus musculus with 6 samples.

Results

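Amino acid transporters of cumulus granulosa cells are described here across the solute carrier families Slc1a, Slc3a, Slc6a, Slc7a, Slc36a, Slc38a and Slc43a. Members were the rows of the authors' deposited table with a symbol of one of these 7 families and a base mean, the mean of normalized counts over all libraries, above 3.3. This gave 39 members of 24982 rows. The pattern also took Slc7a6os, which is named for its position opposite Slc7a6 and is no carrier of the family, and it was set aside. RNA was sequenced from cumulus granulosa cells of Kun-Ming mice in 3 libraries labelled control and 3 labelled Atg5-KD (ko in their titles), each numbered 2, 3 and 4. The treatment text shared by all libraries names short hairpin RNAs against mouse Atg5, which is needed to form autophagosomes. What the control cells were given, the age of the mice and whether libraries came from separate cultures are not given in the sources used here, so the p-values measure the spread among 6 libraries and that spread may be technical.

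Cumulus cells surround the oocyte and pass it small molecules, amino acids among them, through gap junctions. The mouse oocyte is a poor importer of some amino acids, such as alanine, and factors it secretes raise Slc38a3 in the cumulus cells, whose uptake then supplies it. Carriers also serve the cell's own needs: Slc7a5 with its heavy chain Slc3a2 brings in leucine, Slc7a11 with the same heavy chain brings in cystine for glutathione, and lysosomal carriers such as Slc38a9 report amino acids to mTORC1, the kinase that couples nutrients to growth and restrains autophagy. When amino acids run short, the transcription factor ATF4 raises many of these carriers together.

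The table pools the libraries into a base mean, a log2 fold change with its standard error (SE) and a Wald test with p-values adjusted over 14835 tested genes (Benjamini-Hochberg). It has 0 columns per library, so the depth is unknown and values are given as group means estimated from the base mean and the fold change. A gene is called when its deposited adjusted p is under 0.05. Fold changes are taken as Atg5-KD over control because the name of the table puts the knockdown first, and the target gives no check of this direction: the authors' deposited table lists Atg5 at -0.06 ± 0.14 (SE, Wald adjusted p = 0.822). Were the table's order the other way, every rise below would be a fall. Nor is a knockdown of Atg5 visible in these RNA values. Its estimated means were 414 normalized counts in control and 397 in Atg5-KD. The interval of its log2 fold change, -0.34 to 0.21, holds both falls and rises. Atg5-KD is therefore used below as the label of the libraries, and whether Atg5 protein fell was not tested. The scaling also matters: when the summed estimated means of all rows are set equal in both groups (all reads as the scale), every log2 fold change moves by -0.30, and the median of all tested genes from 0.00 to -0.29. Granulosa markers were present, with Inha at a base mean of 30063 and Foxl2 at 1816, whereas Amh, a cumulus and growing follicle marker, stood at 6.07 and Cyp19a1 at 2.34 in the authors' deposited table.

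Amino acid transporters fell more often than they rose. By the calls of the authors' deposited table, 10 of the 39 members were lower in Atg5-KD, 1 was higher and 28 did not pass the test. At an unadjusted p under 0.05 these counts were 14 lower and 3 higher, and the share of all tested genes at that threshold is not given here. Over all tested genes the background of the adjusted calls was 20.9% called, with 10.5% lower and 10.4% higher, against 25.6% and 2.56% of the members. The median log2 fold change was -0.22 for the members and 0.00 for all tested genes in the authors' deposited table, and 29 members lay below 0. Scaled to all counted reads, 22 members were lower and 0 higher, against a background of 42.3% called, 38.7% lower and 3.60% higher. The called members were Slc38a3, Slc38a5, Slc38a10, Slc43a2, Slc6a9, Slc6a6, Slc7a3, Slc7a5, Slc7a7 and Slc1a4 as falls and Slc36a4 as the rise. Each of these falls was also called with all reads as the scale, and the rise of Slc36a4 was not (log2 fold change 0.12, Benjamini-Hochberg adjusted p = 0.493). That scale moves every fold change down by the same amount, so it could only enlarge a fall and is no check on the falls. Markers listed for other cells moved with the falls, and their part in the falls was not tested. The estimated sum of 18 leukocyte markers went from 2412 normalized counts in control to 636 in Atg5-KD. Lyz2 made up 1476 and 335 of these. The sum of 9 smooth muscle markers went from 12512 to 5780, of which Acta2 was 6128 and 2725 and Tagln 3964 and 1653. Which cells these transcripts came from was not tested.

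**Figure D1:**
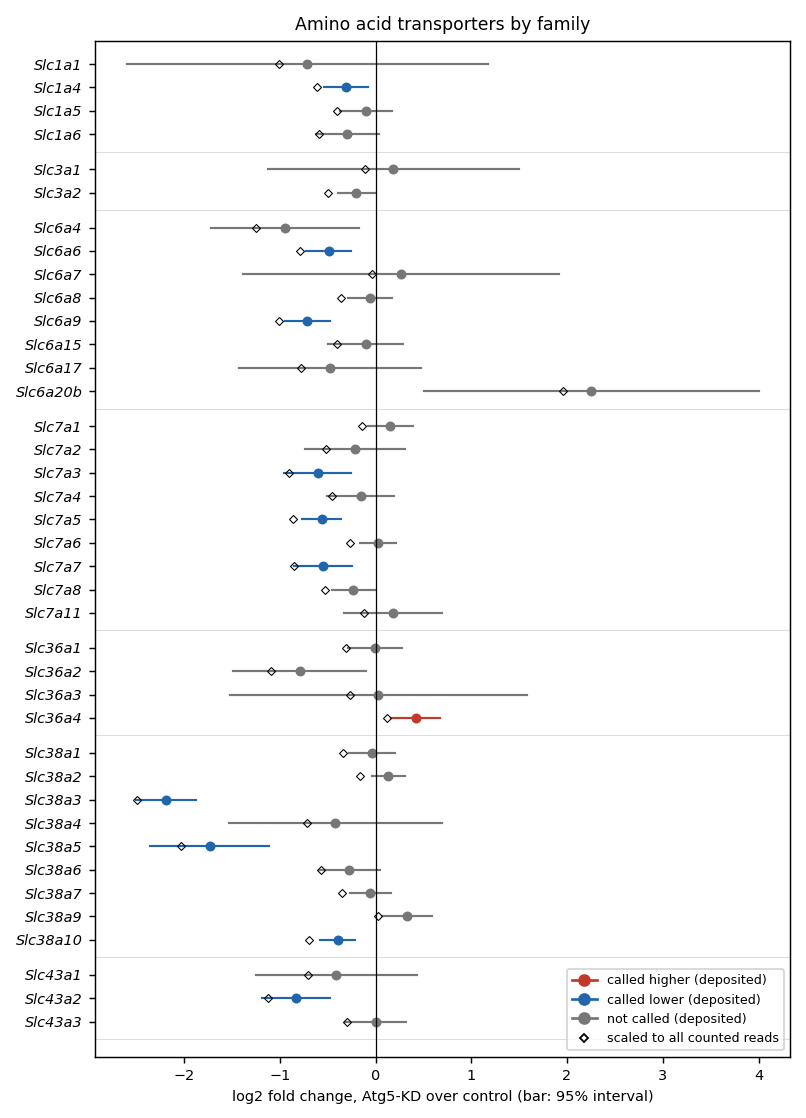
Log2 fold changes of the 39 members by family, Atg5-KD over control. Filled points and bars are the deposited values with 95% intervals, coloured by the call, and open diamonds are the values scaled to all counted reads. Slc38a3 at -2.19 and Slc38a5 at -1.73 stand apart from the other falls, and the wide bars belong to members with few counts.

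Precision differed widely between members. At the deposited threshold, which corresponds to an absolute Wald statistic of 2.56, the smallest difference that could be called was 1.17-fold for Slc38a2 and 5.52-fold for Slc1a1. For the 29 members with a base mean of at least 50 it was at most 1.76-fold, the value of Slc38a5. All 11 called members were among these 29, and the 10 members under 50 were not called.

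Promoter sequences bear on the stress response, because ATF4 acts at a short element in many of its targets. RefSeq start sites of GRCm38.p6 gave 38 windows of 250 bases before the start for 26 of the 39 members. The called falls Slc38a3, Slc6a6, Slc7a3 and Slc7a5 are not among these 26, so the counts below leave them out. Both strands were searched for the ATF4 element TGATGNAAN and the antioxidant element TGACNNNGC. The ATF4 element was in 3 of the 38 windows (7.89%), those of Slc7a11 and Slc7a7, against 3.44% of all 32851 windows and 2.01% of those of tested genes. By gene it was in 2 of 26. Slc7a7 has 2 of the 3 windows and 5 of the 38, some of which overlap. Windows of a gene are not separate observations, so these percentages do not show an excess. The antioxidant element was in 6 windows (15.8%), of Slc38a2, Slc43a1, Slc6a9, Slc7a1 and Slc7a6, against 10.2% of all windows and 11.9% of those of tested genes. By gene it was in 5 of 26, and 2 of the 6 windows are of Slc6a9. The windows of 4 genes are shown in the 5′ to 3′ direction of the gene, with matches to the ATF4 element in capitals: the 2 genes with an ATF4 element, the called fall of largest size that has a window, Slc38a5, and the rise, Slc36a4.
Slc7a11, chr3:50443614-50443863, minus strand: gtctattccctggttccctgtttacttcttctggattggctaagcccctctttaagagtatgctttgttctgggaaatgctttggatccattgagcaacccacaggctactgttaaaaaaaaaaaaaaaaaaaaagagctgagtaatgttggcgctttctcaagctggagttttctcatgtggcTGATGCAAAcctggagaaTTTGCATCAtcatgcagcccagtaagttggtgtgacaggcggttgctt
Slc7a7, chr14:54417945-54418194, minus strand: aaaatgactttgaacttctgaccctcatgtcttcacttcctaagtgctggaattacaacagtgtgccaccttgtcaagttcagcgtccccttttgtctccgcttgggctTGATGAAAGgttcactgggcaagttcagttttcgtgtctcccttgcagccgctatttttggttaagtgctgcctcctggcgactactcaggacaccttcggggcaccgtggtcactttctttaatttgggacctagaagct
Slc38a5, chrX:8271131-8271380, plus strand: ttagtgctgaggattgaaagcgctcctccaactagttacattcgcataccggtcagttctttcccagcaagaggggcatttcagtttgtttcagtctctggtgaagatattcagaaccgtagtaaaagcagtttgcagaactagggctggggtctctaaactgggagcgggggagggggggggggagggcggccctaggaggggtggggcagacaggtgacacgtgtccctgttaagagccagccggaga
Slc36a4, chr9:15709488-15709737, plus strand: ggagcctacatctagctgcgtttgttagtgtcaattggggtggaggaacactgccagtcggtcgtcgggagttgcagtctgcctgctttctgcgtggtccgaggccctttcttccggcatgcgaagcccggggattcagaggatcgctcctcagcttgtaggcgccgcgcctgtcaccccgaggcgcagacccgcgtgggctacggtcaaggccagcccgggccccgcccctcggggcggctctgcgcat

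Slc7a11 carries 2 matches to the ATF4 element, which begin 66 and 48 bases before the start, the second on the opposite strand, and they do not overlap each other. Slc7a7 has the element 141 bases before the start in the window shown and in 1 other of its 5 windows. The windows of Slc38a5 and Slc36a4 hold no match to either element. Slc7a11 was not called and Slc7a7 fell. A match is a description of letters and not a site shown to be used.

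The Slc38a family holds sodium-coupled carriers of glutamine, alanine and other small neutral amino acids, and it contained the biggest falls among the members. Slc38a3 (SNAT3, system N), on chromosome 9 from 107651154 to 107668968 of GRCm38.p6, had an estimated mean of 535 normalized counts in control and 117 in Atg5-KD. It was 4.56-fold lower, with a log2 fold change of -2.19 ± 0.16 (SE), a 95% interval of -2.50 to -1.88 and a Wald adjusted p of 1.76e-40 in the authors' deposited table. The closely related Slc38a5 (SNAT5, also system N), on chromosome X from 8271381 to 8280179, went from an estimated 85.0 to 25.6 normalized counts. That is 3.33-fold lower, at -1.73 ± 0.32 (SE, Wald adjusted p = 1.27e-06) in the authors' deposited table, and the interval of -2.36 to -1.11 overlaps that of Slc38a3. Both system N carriers thus lost most of their transcript, by 78.1% and 69.9% in these estimates.

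The system A carriers, which concentrate small neutral amino acids against a gradient, gave other values. Slc38a2 (SNAT2), which rises in many cells when amino acids are scarce, was at 0.13 ± 0.09 (SE, Wald adjusted p = 0.318) and Slc38a1 (SNAT1) at -0.04 ± 0.12 (SE, Wald adjusted p = 0.877) in the authors' deposited table. Their 95% intervals, -0.04 to 0.31 and -0.28 to 0.20, do not reach those of Slc38a3 or Slc38a5, though the difference between genes was not tested. Slc38a4, the third system A carrier, was sparse at a base mean of 13.2 and stood at -0.42 ± 0.57 (SE) in the authors' deposited table. With all reads as the scale Slc38a2 turned to -0.17 without a call and Slc38a1, at -0.34, was called lower.

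The remaining Slc38a members act mainly inside the cell or are poorly known. Slc38a10, on chromosome 11 from 120103951 to 120151351, fell from an estimated 3076 to 2335 normalized counts, a log2 fold change of -0.40 ± 0.09 (SE, Wald adjusted p = 0.000203) in the authors' deposited table. That call ended when the trend of fold change with GC content and length was removed (-0.24, Benjamini-Hochberg adjusted p = 0.0607). Gm11769 overlaps 5.72% of its exonic bases on the opposite strand. Slc38a9, the lysosomal arginine sensor of mTORC1, was at 0.33 ± 0.13 (SE, Wald adjusted p = 0.0614) and Slc38a7, a lysosomal glutamine exporter, at -0.05 ± 0.11 (SE) in the authors' deposited table. Slc38a6, whose substrates are less clear, was at -0.27 ± 0.16 (SE, Wald adjusted p = 0.246) in the authors' deposited table. In all, 3 of the 9 Slc38a members were lower and 0 higher, and 6 were lower with all reads as the scale. As deposited 33.3% were lower, against 10.5% of all tested genes, and with all reads as the scale 66.7%, against 38.7%.

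The Slc6a family couples uptake to sodium and chloride and includes carriers of taurine, glycine, creatine and monoamines. Slc6a6, the taurine carrier, on chromosome 6 from 91684048 to 91759063, was the member of highest level, with a base mean of 19317. Its estimated mean fell from 22574 normalized counts in control to 16061 in Atg5-KD, a log2 fold change of -0.49 ± 0.12 (SE, Wald adjusted p = 0.000496) in the authors' deposited table. Slc6a9 (GLYT1), the glycine carrier that mouse oocytes and early embryos use to control their volume, on chromosome 4 from 117835258 to 117869305, went from 662 to 404 in the same estimate. It was 1.64-fold lower, at -0.71 ± 0.12 (SE, Wald adjusted p = 1.77e-07) in the authors' deposited table.

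Exons of other genes on the opposite strand overlap Slc6a9. Ccdc24 covers 27.8% of its exonic bases in GENCODE M21 and stood at a base mean of 54.9 and -0.01 ± 0.30 (SE) in the authors' deposited table. Whether counting used the strand is not stated in the sources used here, so reads from both genes cannot be told apart there. Gm17114 covers a further 9.94% of the exonic bases of Slc6a9. B4galt2 overlaps Slc6a9 by 0.895% of its exonic bases and was itself lower, at -0.62 ± 0.12 (SE, Wald adjusted p = 7.69e-06) in the authors' deposited table. Smaller overlaps on the opposite strand were those of Gm44981 with 1.38% of the exonic bases of Slc6a6 and of Gm47827 with 1.09% of those of Slc38a9.

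The other 6 Slc6a members did not pass the test. Slc6a8, the creatine carrier, was at -0.06 ± 0.12 (SE) and Slc6a15, a carrier of branched-chain amino acids and proline, at -0.10 ± 0.20 (SE) in the authors' deposited table. Slc6a4, the serotonin carrier, was low, with a base mean of 30.0, and stood at -0.95 ± 0.39 (SE, Wald adjusted p = 0.0694), and Slc6a17, known from synaptic vesicles, at -0.48 ± 0.48 (SE) in the authors' deposited table. Slc6a7, the proline carrier, was listed at 0.26 ± 0.84 (SE) with a base mean of 6.09 in the authors' deposited table. Slc6a20b had the highest fold change of any member, 2.25 ± 0.89 (SE, Wald adjusted p = 0.0541) in the authors' deposited table, on estimated means of 2.03 and 9.65 normalized counts. It has a close paralog, Slc6a20a, at a base mean of 0.576, and the counting could split reads between them. Sacm1l overlaps 21.1% of its exonic bases on the opposite strand, with a base mean of 1254 and a log2 fold change of 0.31 ± 0.11 (SE, Wald adjusted p = 0.0228) in the authors' deposited table.

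The Slc7a family falls into cationic carriers, which work alone, and light chains, which need a heavy chain of the Slc3a family to reach the membrane. Of 5 light chains that pair with the heavy chain Slc3a2, 2 were lower, 0 higher and 3 not called. Over all tested genes 10.5% were lower and 10.4% higher, and 5 genes are too few to set against these shares. Slc7a5 (LAT1), which exchanges glutamine for leucine and other large neutral amino acids, on chromosome 8 from 121881146 to 121907686, fell from an estimated 2174 to 1471 normalized counts. This 1.48-fold fall is listed at -0.56 ± 0.10 (SE, Wald adjusted p = 1.19e-06) in the authors' deposited table. Slc7a7 (y+LAT1), which exports cationic amino acids in epithelia and macrophages, on chromosome 14 from 54369442 to 54420068, went from an estimated 274 to 187, at -0.55 ± 0.15 (SE, Wald adjusted p = 0.00305) in the authors' deposited table. Oxa1l overlaps 232 of its 3315 exonic bases on the opposite strand and stood at -0.24 ± 0.10 (SE, Wald adjusted p = 0.0560) in the authors' deposited table.

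Slc7a8 (LAT2) at -0.23 ± 0.12 (SE, Wald adjusted p = 0.140) and Slc7a6 (y+LAT2) at 0.03 ± 0.10 (SE, Wald adjusted p = 0.893) were not called in the authors' deposited table. The interval of Slc7a6 ran from -0.16 to 0.21 and lies above that of Slc7a5, -0.77 to -0.36. Slc3a2 itself, the common heavy chain (4F2hc, CD98), was at -0.20 ± 0.10 (SE, Wald adjusted p = 0.136) with a base mean of 3908 in the authors' deposited table. Scaled to all reads, Slc7a6 at -0.27, Slc7a8 at -0.53 and Slc3a2 at -0.50 were all called lower. Slc3a1, the heavy chain of kidney and gut, was sparse and stood at 0.19 ± 0.67 (SE) in the authors' deposited table, and Prepl covers 26.5% of its exonic bases on the opposite strand.

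Slc7a11 (xCT), the cystine and glutamate exchanger and a classic target of ATF4 and NRF2, was low and did not pass the test. Its estimated means were 64.5 normalized counts in control and 73.1 in Atg5-KD, at 0.18 ± 0.26 (SE, Wald adjusted p = 0.696) in the authors' deposited table. The 95% interval of -0.33 to 0.69 spans a fall of 20.4% to a rise of 61.5%. Its sign turned to -0.12 with all reads as the scale.

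Among the cationic carriers, Slc7a3 (CAT3), on chromosome X from 101079146 to 101090452, was the one called. It fell from an estimated 219 to 144 normalized counts, at -0.60 ± 0.18 (SE, Wald adjusted p = 0.00578) in the authors' deposited table. Slc7a1 (CAT1), the general arginine carrier, was much more abundant at a base mean of 4143 and stood at 0.16 ± 0.12 (SE, Wald adjusted p = 0.406) in the authors' deposited table. Its interval of -0.08 to 0.39 does not meet that of Slc7a3, -0.95 to -0.25. Slc7a2 (CAT2) at -0.22 ± 0.27 (SE) and Slc7a4 at -0.16 ± 0.18 (SE) were not called in the authors' deposited table. On the opposite strand Gm26584 overlaps 6.95% of the exonic bases of Slc7a2 and P2rx6 13.3% of those of Slc7a4.

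The Slc43a family carries large neutral amino acids without sodium. Slc43a2 (LAT4), which lets branched-chain amino acids, phenylalanine and methionine leave cells, on chromosome 11 from 75529915 to 75577575, fell from an estimated 586 to 330 normalized counts. It was 1.77-fold lower, at -0.83 ± 0.18 (SE, Wald adjusted p = 8.88e-05) in the authors' deposited table. The antisense gene Gm45606 overlaps 9.18% of its exonic bases. Slc43a1 (LAT3) at -0.41 ± 0.43 (SE) and Slc43a3, a carrier of purine bases, at -0.0010 ± 0.16 (SE) were not called in the authors' deposited table.

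The Slc1a family holds carriers of glutamate and of alanine, serine, cysteine and glutamine. Slc1a4 (ASCT1), on chromosome 11 from 20302180 to 20332713, was lower at -0.31 ± 0.12 (SE, Wald adjusted p = 0.0417) in the authors' deposited table, on estimated means of 709 and 572 normalized counts. This call was the weakest of the 11 and ended without the filter on low values (Benjamini-Hochberg adjusted p = 0.0539) and without the trend in GC content and length (-0.23, Benjamini-Hochberg adjusted p = 0.221). Slc1a5 (ASCT2), the main glutamine importer of dividing cells, was at -0.10 ± 0.14 (SE, Wald adjusted p = 0.684) in the authors' deposited table. The glutamate carriers Slc1a6, at -0.29 ± 0.17 (SE), and Slc1a1, at -0.71 ± 0.96 (SE), were not called in the authors' deposited table. The gene 4430402I18Rik overlaps 31.9% of the exonic bases of Slc1a1 on the opposite strand.

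The Slc36a family moves small amino acids together with protons, partly across the lysosomal membrane. Slc36a4 (PAT4), a carrier of proline and tryptophan on chromosome 9 from 15709738 to 15742388, was the member called higher. Its estimated mean rose from 351 to 469 normalized counts, at 0.42 ± 0.13 (SE, Wald adjusted p = 0.009999) in the authors' deposited table. The call ended with all reads as the scale, as given above, and without the trend in GC content and length (0.25, Benjamini-Hochberg adjusted p = 0.229). Slc36a1 (PAT1), on lysosomes, was at -0.01 ± 0.14 (SE) and Slc36a3 at 0.03 ± 0.79 (SE) in the authors' deposited table. Slc36a2 (PAT2) was at -0.79 ± 0.35 (SE, Wald adjusted p = 0.0971) with a base mean of 36.9 in the authors' deposited table.

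Per kilobase of exon the members spanned a wide range of levels. Slc6a6, Slc3a2, Slc7a8 and Slc38a2 were highest, with base means of 2284, 1107, 635 and 628 normalized counts per kilobase, and these 4 made up 58.9% of the sum over all members. Slc38a3, at 101 normalized counts per kilobase in control, fell to 22.2 in Atg5-KD, and it ranks 19 of 39 by mean level. Slc38a5 fell from 38.0 to 11.4 normalized counts per kilobase in the same estimate. Slc7a11 ranked 31 of 39, at 4.94 normalized counts per kilobase. Summed over the members, the estimated level was 8671 normalized counts per kilobase in control and 7131 in Atg5-KD, a change of -17.8%, to which the abundant Slc6a6 contributed from 2669 to 1899. Lengths are the union of exons annotated in GENCODE M21, and the isoforms used in these cells were not measured.

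**Figure D2:**
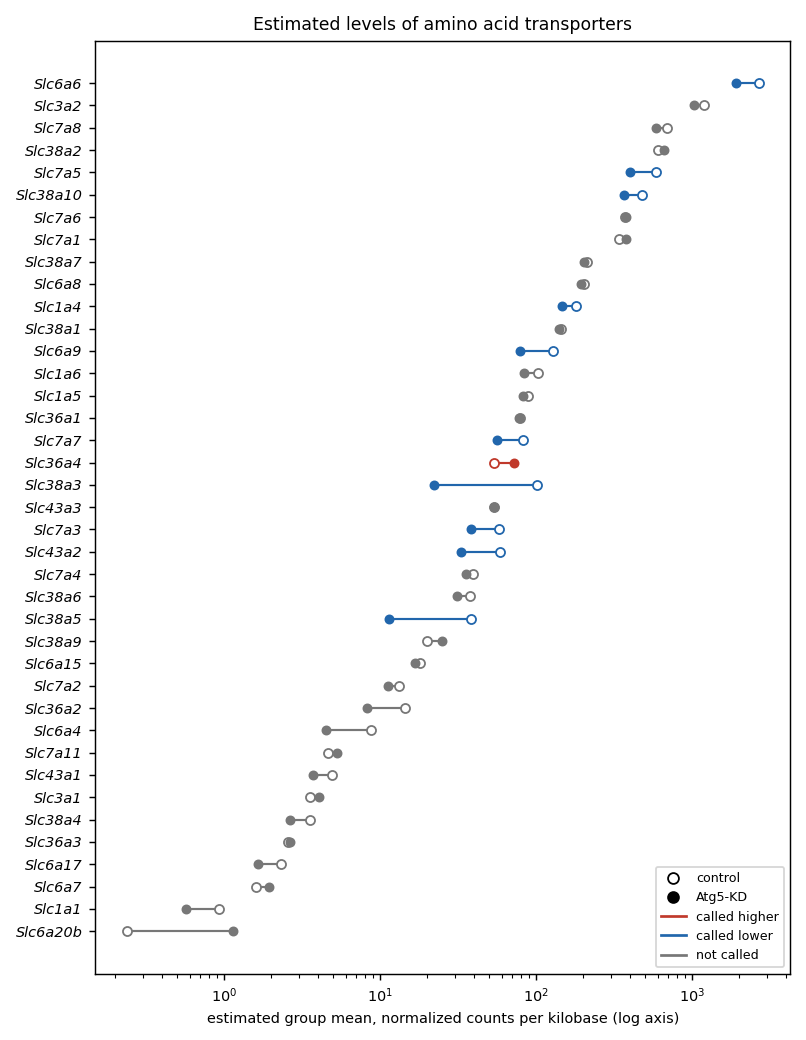
Estimated group means of the 39 members in normalized counts per kilobase of exon (log axis), ordered by mean level, with control as open and Atg5-KD as filled points joined by a line coloured by the call. The gap is widest among called members for Slc38a3, from 101 to 22.2, while Slc6a6 leads both groups.

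Carriers tied to supply of the oocyte and those of the stress response were also read as groups. Of 6 carriers of the first group, Slc38a3, Slc6a9 and Slc6a6 were lower and Slc7a6, Slc38a1 and Slc38a2 not called, with a median log2 fold change of -0.26 in the authors' deposited table (5 lower with all reads as the scale). Slc6a9 and Slc38a2 are counted in both groups, and Slc6a9 is described above as a carrier that oocytes use themselves. Supply of the oocyte was not measured. As deposited 50% of the first group were lower, against 10.5% of all tested genes, and with all reads as the scale 83.3%, against 38.7%. The groups were chosen with earlier results of these data known, so these shares describe the lists and test nothing. Of 9 stress response carriers 4 were lower (Slc6a9, Slc7a3, Slc7a5 and Slc1a4) and 0 higher in the authors' deposited table, with a median of -0.20, against the background of 10.5% lower and 10.4% higher. The other 5, Slc7a11, Slc3a2, Slc7a1, Slc38a2 and Slc1a5, did not pass the test. With all reads as the scale 6 of the 9 were lower and 0 higher, against 38.7% and 3.60% of all tested genes. Among lysosomal carriers Slc36a4 was higher of 4 tested in the authors' deposited table, and with all reads as the scale 0 were higher and 1 lower. As deposited 25% were called, near the 20.9% of all tested genes.

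Genes next to the carriers in the same pathways were read from lists. Of 25 other genes of the ATF4 response 8 were lower and 3 higher by the calls of the authors' deposited table, with a median log2 fold change of -0.15 (20 lower and 2 higher with all reads as the scale). As deposited 32% were lower and 12% higher, against 10.5% and 10.4% of all tested genes. With all reads as the scale 80% were lower, against 38.7%. At a Wald adjusted p under 0.01, 8% were lower and 8% higher, against 6.94% and 6.92% of all tested genes. After correction for GC content and exon length 24% were lower and 12% higher, against 7.30% and 6.28%. The median of the list was then 0.0032, with 12 genes below 0 and 13 above. Nupr1, a stress-induced chromatin protein, was at -0.85 ± 0.14 (SE), and Shmt2, which makes glycine from serine in mitochondria, at -0.54 ± 0.10 (SE) in the authors' deposited table. The 3 higher genes were Eif2ak2 at 1.79 ± 0.12 (SE), the kinase PKR that is induced by interferon, Ddit3 (CHOP) at 0.66 ± 0.15 (SE) and Cebpg at 0.29 ± 0.11 (SE) in the authors' deposited table. Atf4 itself was at -0.11 ± 0.10 (SE, Wald adjusted p = 0.446), and Asns, which makes asparagine, was lower at -0.30 ± 0.10 (SE) in the authors' deposited table. Atf4, Asns and Cebpg lie outside the rule for named genes and were picked with their values in view.

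Enzymes that use the carried amino acids fell more often than they rose. Of 27 genes of glutamine, branched-chain and serine metabolism 11 were lower and 2 higher by the calls of the authors' deposited table, with a median of -0.25, and after correction for GC content and exon length 6 were lower. Bckdha, of the branched-chain dehydrogenase, was lower at -0.45 ± 0.10 (SE, Wald adjusted p = 0.000293) in the authors' deposited table, as was Shmt2, given above. Some of the genes called lower, Shmt2 and Asns among them, are also counted in the list of the ATF4 response. Odc1, which makes polyamines from ornithine, was higher at 0.33 ± 0.09 (SE) in the authors' deposited table. With all reads as the scale 19 of the 27 were lower and 0 higher. Called lower were 40.7% as deposited, 22.2% after the correction and 70.4% with all reads as the scale. Over all tested genes these shares were 10.5%, 7.30% and 38.7%.

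Glutathione and NRF2 target genes moved in both directions. By the calls of the authors' deposited table, 3 of 16 tested were higher and 3 lower (median -0.08), and 0 and 9 with all reads as the scale. As deposited 18.75% were called in each direction, against 10.4% higher and 10.5% lower of all tested genes. With all reads as the scale 56.25% were lower, against 38.7%. Cbs and Cth, the enzymes that make cysteine from homocysteine inside the cell, were lower at -1.52 ± 0.20 (SE, Wald adjusted p = 3.12e-12) and -0.52 ± 0.16 (SE, Wald adjusted p = 0.00687) in the authors' deposited table. Gclc, the catalytic subunit for the first step of glutathione synthesis, was lower at -0.36 ± 0.11 (SE) and the haem oxygenase Hmox1 higher at 0.50 ± 0.12 (SE) in the authors' deposited table.

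Genes that sense amino acids for mTORC1 gave 6 higher and 0 lower of 31 tested by the Wald calls of the authors' deposited table, with a median of 0.07 and the same counts at an unadjusted p under 0.05. Rragd, a Rag GTPase, was at 0.55 ± 0.12 (SE), Fnip1, a folliculin partner, at 0.55 ± 0.13 (SE) and Depdc5, of the GATOR1 inhibitor, at 0.42 ± 0.12 (SE) in the authors' deposited table. These calls ended with all reads as the scale, where 0 were higher and 13 lower. As deposited 19.4% of the list was called, near the 20.9% of all tested genes, of which 10.4% were higher and 10.5% lower. With all reads as the scale 41.9% of the list was lower, near the 38.7% of all tested genes.

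Carriers of amino acids outside the 7 families gave 1 higher and 2 lower of 14 tested by the calls of the authors' deposited table, with a median of 0.00, and 1 and 8 with all reads as the scale. As deposited 21.4% were called, near the 20.9% of all tested genes. With all reads as the scale 57.1% were lower and 7.14% higher, against 38.7% and 3.60% of all tested genes. Slc16a10 (TAT1), which carries aromatic amino acids, was lower at -0.79 ± 0.16 (SE, Wald adjusted p = 2.24e-05) and Slc15a3, a lysosomal histidine and peptide carrier of immune cells, at -1.60 ± 0.43 (SE, Wald adjusted p = 0.00196) in the authors' deposited table. Slc12a8 was 2.46-fold higher, with a standard error of 0.14 on the log2 scale and a Wald adjusted p of 2.38e-18 in the authors' deposited table, and Slc25a22, a mitochondrial glutamate carrier, was at -0.26 ± 0.12 (SE, Wald adjusted p = 0.119) there. In the list of oocyte to cumulus coupling Gja1, the main gap junction protein between cumulus cells, was lower at -0.33 ± 0.09 (SE, Wald adjusted p = 0.00343) and Pkm at -0.26 ± 0.09 (SE) in the authors' deposited table. That list had 3 lower, Slc38a3 among them, and 1 higher of 11 tested by the calls of the authors' deposited table, with a median of -0.14, and 7 and 0 with all reads as the scale. As deposited 27.3% of it were lower and 9.09% higher, against 10.5% and 10.4% of all tested genes. With all reads as the scale 63.6% were lower, against 38.7%.

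**Figure D3:**
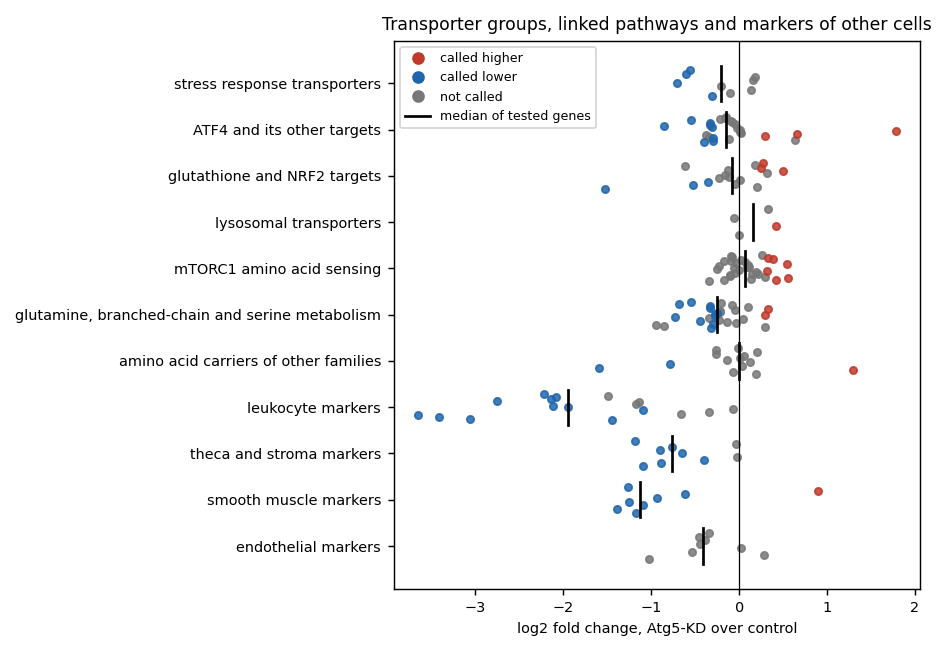
Log2 fold changes of the tested genes of each list, Atg5-KD over control, with 1 point per gene coloured by the deposited call and a black bar at the median. Leukocyte, smooth muscle and stroma markers lie mostly below 0, with medians of -1.94, -1.13 and -0.77, while mTORC1 sensing genes centre near 0.07.

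Markers of other cell types moved in the same direction as the falls among the carriers. Of 17 tested leukocyte markers 11 were lower and 0 higher by the Wald calls of the authors' deposited table, with a median of -1.94, and at an unadjusted p under 0.05 these were 14 and 0. By the deposited calls 64.7% were lower, against 10.5% of all tested genes. None of the 18 listed was at 0, with the sums given above. C1qc at -3.66 ± 0.51 (SE), Laptm5 at -2.75 ± 0.34 (SE), C1qa at -3.06 ± 0.45 (SE) and Lyz2 at -2.14 ± 0.32 (SE) had the smallest adjusted p of this list in the authors' deposited table.

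Connective tissue and muscle markers were lower as well. Of the tested theca and stroma markers 77.8% were called lower and of the smooth muscle markers 87.5%, against 10.5% of all tested genes. Of 9 tested theca and stroma markers 7 were lower and 0 higher, and the sum of all 11 went from 9604 to 5891 normalized counts, while Cyp17a1, which defines theca cells, was near 0 at a base mean of 0.131. Col1a1 at -1.10 ± 0.14 (SE), Col1a2 at -0.89 ± 0.13 (SE), Ogn at -0.90 ± 0.17 (SE) and Tcf21 at -1.18 ± 0.29 (SE) led that list in the authors' deposited table. Of 8 tested smooth muscle markers 7 were lower and 1, Notch3, higher, with the sums given above. Rgs5 was not tested, at a base mean of 0.709. Actg2 at -1.39 ± 0.14 (SE), Acta2 at -1.17 ± 0.12 (SE), Tagln at -1.26 ± 0.13 (SE) and Mcam at -0.93 ± 0.13 (SE) led it in the authors' deposited table.

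Other marker lists gave fewer calls. Endothelial markers had 0 calls in 8 tested by the deposited Wald test (1 lower at an unadjusted p under 0.05), with a median of -0.42 and 6 of the 8 below 0. The 2 of highest base mean were Egfl7 at 0.28 ± 0.27 (SE) and Eng at -0.54 ± 0.26 (SE) in the authors' deposited table, and the list's estimated sums were 298 normalized counts in control and 259 in Atg5-KD. Oocyte markers had 0 calls in 6 tested by the same Wald test (0 at an unadjusted p under 0.05), with Gdf9 at 0.26 ± 0.46 (SE) and Zp2 at 0.17 ± 0.58 (SE) in the authors' deposited table, sums of 77.5 and 88.0, and Figla at 0. Of 7 erythroid markers 5 were at 0, and Alas2 was higher at 1.96 ± 0.37 (SE) in the authors' deposited table. Among 11 tested granulosa markers 3 were lower and 2 higher (6 and 1 with all reads as the scale). As deposited 27.3% were lower and 18.2% higher, against 10.5% and 10.4% of all tested genes. With all reads as the scale 54.5% were lower, against 38.7%. Hsd17b1 at -0.79 ± 0.11 (SE), Foxl2 at -0.49 ± 0.10 (SE) and Kctd14 at -1.43 ± 0.32 (SE) were lower and Nr5a2, at 0.62 ± 0.12 (SE), higher in the authors' deposited table. Slc7a7 and Slc15a3 are known from macrophages, and the part of any of these cells in the falls of the carriers was not tested. In bulk RNA, fewer cells of a type and less RNA per cell cannot be told apart.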

How the data were processed

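RNA of 3 libraries labelled control and 3 labelled Atg5-KD was measured by sequencing; per the labels' protocols it was polyA RNA, and they describe both a standard library kit and preamplified cDNA. Amplification can add spread to low counts. Per the submitters' processing notes, the tools were DESeq2 1.30.1, StringTie 2.1.4, featureCounts 1.6.2 and STAR and the genome was mm10, with no role or order given. The only table analysed was the authors' comparison, with the columns of a DESeq2 result per the file headers. The base mean, a signal, was deposited by the authors and is, as DESeq2 defines that column, the mean of counts after division by size factors. Its fold changes and standard errors are deposited on the log2 scale. The authors also deposited the Wald statistic, a score. The deposited p-values, with 0 rows differing at a relative tolerance of 1e-06, equal the two-sided normal p and its Benjamini-Hochberg adjustment over 14835 genes. Strandedness and annotation of the counting are not given in the sources used here. The 24982 rows include 5741 at a base mean of 0.

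Group means were estimated here from the base mean and fold change, which assumes that the deposited fold change is the ratio of both group means. Intervals are 95% normal intervals. Alternatives shifted the fold changes, removed their trend with GC content and length (cubic, GENCODE M21, 99.2% of tested genes matched) or changed the filter or threshold, with adjusted p recomputed in Python 3.11.15 and scipy 1.17.1. The Wald test, its adjustment and the removal of the trend were tested on simulated data. All 39 members matched RefSeq symbols. Members, lists and tests were chosen with earlier results of these data known. All members are named, and of other lists with a call the 4 genes of smallest adjusted p, except a few that are not reported here. Overlaps of members' exons with exons on the opposite strand were read from GENCODE M21. Planned protein sequences were not used here.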

Additional observations from a re-analysis of the deposited data

How the results depend on the processing

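Scaled to all counted reads, 0 members were called higher and 22 lower, against 1 and 10 as deposited. After correction for GC content and exon length 0 were higher and 8 lower, and with a limit of 1.5-fold 0 were higher and 5 lower. The correction left 20.5% of members lower, against 7.30% lower and 6.28% higher of all genes tested. The limit left 12.8% of members lower, against 4.31% lower and 4.37% higher of all tested genes. An adjusted p under 0.01 and no filter on low values each gave 1 higher and 9 lower, losing Slc1a4, and a base mean of at least 50 and centring on the median changed no call. The rise of Slc36a4 lay just under the stricter threshold (Wald adjusted p = 0.009999). Without the filter 23.1% of members were lower and 2.56% higher, against 9.77% and 9.75% of all tested genes. The stricter threshold called 25.6% of members and 13.9% of all tested genes. Among genes with a base mean of at least 50 these shares were 37.9% and 25.9%. Of the 10 falls, 8 were also called after the correction for GC content and exon length. All reads as the scale could only enlarge a fall, so it kept all 10. Across genes with a base mean of at least 50, GC content and log2 fold change had a Pearson correlation of -0.33 (11262 genes, which are not independent replicates).

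Among these alternatives only the correction for GC content and exon length could turn a called fall into a rise. The others left fold changes as they were or moved all of them down. No called member changed sign under these alternatives. Uncalled members that did were, with all reads as the scale, Slc3a1 at -0.11, Slc6a7 at -0.0362, Slc7a1 at -0.14, Slc7a6 at -0.27 (then called lower), Slc7a11 at -0.12, Slc36a3 at -0.27 and Slc38a2 at -0.17. After the correction these were Slc1a5 at 0.0634, Slc6a8 at 0.10, Slc7a6 at -0.0133, Slc7a11 at -0.14, Slc36a1 at 0.0716, Slc38a2 at -0.0581, Slc38a7 at 0.0816 and Slc43a3 at 0.0155. The cause was not tested. No paired analysis was possible because the table pools the libraries, and for the same reason leaving out a library was not run.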

Other observations

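The same 7 families had 24 further rows at or below the base mean of 3.3, of which 6 were listed at 0, Slc7a12 and Slc7a14 among them. Of the 24, 13 were Slc6a rows, among them the carriers of dopamine (Slc6a3) and noradrenaline (Slc6a2). The highest of the 24 were Slc7a10 at a base mean of 2.72 and Slc1a3, a glutamate carrier of glia, at 2.52, while the lowest members above the limit were Slc6a20b at 5.84 and Slc6a7 at 6.09.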
